A study of Mus musculus with 9 samples.

Results

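Mouse miRNA identifiers with a number of 1000 or more were examined in extracellular vesicles from podocytes, the epithelial cells on the outer face of the kidney's filtering capillaries. Members were chosen by 2 values, the number in the name and a deposited count above 0 in at least 1 of 9 libraries. Of 1066 such identifiers in the tables, 118 met the rule, and after rows with identical counts were merged 108 distinct members remained, out of 479 identifiers of any number that were listed. The vesicles came from 1 conditionally immortalized mouse podocyte line that had been differentiated for 10 days and then treated for 48 h, so every group shares that single line and its serum-containing medium. The 3 groups, with 3 libraries each, were normal glucose (5.3 mM), mannitol (24.7 mM of this sugar alcohol beside 5.3 mM glucose, which matches the osmolality of the high glucose medium) and high glucose (30 mM). In each group 1 library has a title with no number and is called replicate 1 here. Vesicles were collected with a polymer that precipitates other RNA carriers of the medium as well, and it is not stated that vesicles native to the serum were removed. The labels do not tie libraries to separate cultures, and p-values therefore reflect the spread among these 9 samples alone, which may be technical.

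An animal miRNA is cut from a hairpin, first by Drosha with its partner Dgcr8 in the nucleus and then by Dicer, and 1 arm of the hairpin is loaded into an Argonaute protein. The loaded strand finds target transcripts mainly through its seed, bases 2 to 8 from the 5′ end. Identifiers are numbered in the order of their registration, so high numbers belong largely to sequences found late by deep sequencing. Among them are mirtrons, whose hairpin is a whole spliced intron that needs no cut by Drosha, and fragments of small nucleolar RNA (snoRNA) and small Cajal body RNA (scaRNA), which otherwise guide the chemical modification of ribosomal and spliceosomal RNA. Some high-numbered entries have been attributed to broken ribosomal or transfer RNA.

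Mature sequences of 92 members were matched by name in RefSeq's table for GRCm38.p6, the same build as mm10. The 12 most abundant members, other than the repeat-matching miR-3473b given further on, are shown first because they hold most of the counts described here. Capitals mark the seed, bases 2 to 8.
miR-1839-5p: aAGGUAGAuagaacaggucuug
miR-1198-5p: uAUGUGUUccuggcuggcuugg
miR-5121: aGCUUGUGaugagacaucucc
miR-2137: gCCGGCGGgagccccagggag
miR-1981-5p: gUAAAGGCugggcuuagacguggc
miR-1843a-5p: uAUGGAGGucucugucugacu
miR-1843b-5p: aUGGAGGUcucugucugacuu
miR-3057-5p: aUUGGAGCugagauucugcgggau
miR-1964-3p: cCGACUUCugggcuccggcuuu
miR-3535: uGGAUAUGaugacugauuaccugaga
miR-6239: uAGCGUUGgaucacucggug

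These sequences had little seed kinship with the better known miRNAs. The 92 matched members carried 91 distinct seeds, and 1 member, miR-1928, shared its seed with listed identifiers below 1000, the cell cycle-associated pair miR-221-3p and miR-222-3p. The median GC content of the matched members was 54.5%, with a range of 30.0% to 94.7%. It was 47.8% over the 301 matched of 361 listed identifiers below 1000, and 56.5% over the 827 matched of 948 high-numbered identifiers that were at 0 in every library.

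Total miRNA counts per library ranged from 725211 to 2553690, and levels are given as CPM, counts per 1000000 of these totals. A read spans a whole mature miRNA, so CPM was not scaled to length, and levels of different identifiers also carry the preferences of adapter ligation. The smallest count listed in any library was 10, and any lower count, 0 to 9 reads, appears as 0. In these libraries 9 reads equalled 3.52 to 12.4 CPM depending on the library. Vesicle number and miRNA content per vesicle cannot be told apart in such data. All 8 miRNAs of a podocyte list, the miR-30 family with miR-23b-3p, miR-24-3p and miR-26a-5p, were listed in all 9 libraries, at a summed 123466 to 244254 CPM. Of 7 blood, immune and liver miRNAs 6 were listed, at a summed 13483 to 33499 CPM, while the white cell miRNA miR-142a-3p was at 0 in every library. The other arm of that hairpin, miR-142a-5p, is not on the list and stood at 0 to 24.8 CPM, with a median of 12.6 CPM. Lists for muscle, endothelium, tubule and neurons had 3 of 3, 2 of 2, 3 of 4 and 3 of 3 listed, with the tubule miRNA miR-204-5p at 0 throughout. Their summed levels were 1368 to 5994, 229 to 825, 2286 to 5008 and 1355 to 3384 CPM in the same order.

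High-numbered identifiers were listed rarely and at low levels. They made up 1066 of the 1915 identifiers in the tables, yet 10.1% of them were listed as distinct rows, against 42.5% of the 849 below 1000, where identical rows were not merged. The median of the mean level was 6.27 CPM for members and 50.3 CPM for listed identifiers below 1000. Only 12 members reached a mean of 100 CPM and 2 a mean of 1000 CPM, where 150 and 74 identifiers below 1000 did so. All 9 libraries listed 30 members (27.8%), and 18 were listed in a single library. At the border of the rule, miR-877-3p and miR-877-5p lay just outside with medians of 42.7 and 49.7 CPM. Just inside, miR-1191b-5p was listed in 3 libraries and miR-1194 in 4, both with a median of 0.

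By number, identifiers in the lower ranges were listed most often. Members are counted here as distinct rows, against all identifiers of a range. Of 121 identifiers numbered in the 1000s 29 were members, of 155 in the 3000s 30, and of 68 in the 5000s 11. Before identical rows were merged, 29, 35 and 12 were listed in these 3 ranges. A block rich in predicted mirtrons runs from late in the 6000s into the 7000s. It had 20 distinct rows listed among 403 identifiers, not counting miR-6991-5p and miR-7065-3p, which were merged as identical rows. The rest of the 6000s had 3 of 112. Members of the 1000s together reached 7602 to 9306 CPM per library, and those of the mirtron-rich block 51.7 to 249.7 CPM.

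The share of all miRNA counts taken by the 108 members was 1.19%, 0.973% and 1.05% in the normal glucose libraries. The mannitol libraries had 1.42%, 1.14% and 1.20%, those of high glucose 1.25%, 1.07% and 1.04%, and all groups overlapped. A single member, miR-1839-5p, made up 32.6% to 66.0% of these counts. Without it the share averaged 0.522% ± 0.0875 for normal glucose, 0.714% ± 0.265 for mannitol and 0.471% ± 0.142 for high glucose (SD, n = 3 libraries), again with overlap.

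**Figure D1:**
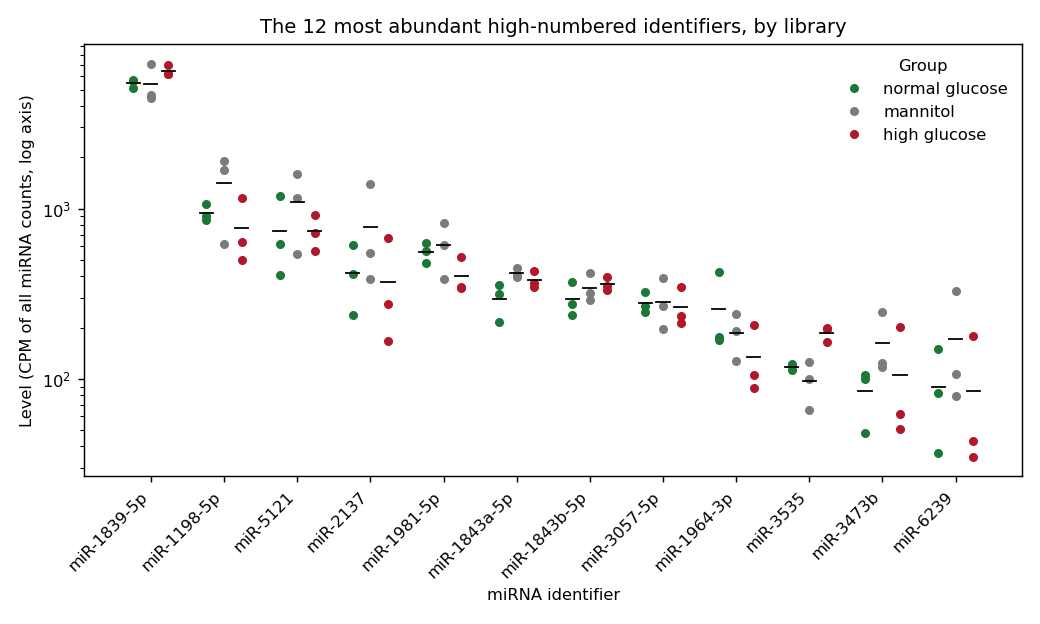
Level in CPM (log axis) of the 12 most abundant high-numbered identifiers, with 1 point per library and a bar at the mean of each group of 3. miR-1839-5p lay at 4477 to 7119 CPM, above every other member in every library, and the coefficient of variation over the 9 libraries was highest for miR-6239 (81.5%) and miR-2137 (70.7%).

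The most abundant member, miR-1839-5p, ranked 39 among all identifiers. Its mature sequence lies at chr7:81529919-81529940 on the plus strand of GRCm38, inside a scaRNA gene that bears the same name, within the long noncoding RNA gene 2900076A07Rik. Its level was 5659.6, 5096 and 5694 CPM in normal glucose, 4629, 7119 and 4477 CPM with mannitol, and 6166, 7028 and 6217 CPM in high glucose. Each high glucose library lay above each normal glucose library, and the mannitol libraries spanned both groups. The coefficient of variation over the 9 libraries was 16.4%, the lowest among the 12 most abundant members.

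Several other abundant members also lay inside snoRNA or scaRNA genes. Loci were compared with GENCODE M21 small RNA genes, a set not limited to snoRNA and scaRNA and without miRNA genes. Overlap was found for 2 of 301 (0.664%) matched listed identifiers below 1000 and 9 of 827 (1.09%) high-numbered identifiers at 0 everywhere. Among the 92 matched members it was found for 10 (10.9%), each time with a snoRNA or scaRNA gene. Besides miR-1839-5p these were miR-5121 in Snord33 (chr7:45126925-45126945, minus strand), both arms of miR-1843a in Scarna3b (miR-1843a-5p at chr12:80391654-80391674, minus strand, in an intron of Dcaf5) and both arms of miR-1843b in Scarna3a (miR-1843b-5p at chr1:159340362-159340382, plus strand, in an intron of Cop1). The others were miR-3535 in the snoRNA gene Gm24148 (chr1:86352062-86352087, minus strand, in an intron of Ncl, the gene of nucleolin), both arms of miR-3068 in an intron of Alkbh1, and miR-6516-5p in Snhg20. Together the 10 reached 6335 to 8699 CPM per library, 49.7% to 79.9% of the counts of all members. Without miR-1839-5p their sum was 1239 to 2434 CPM.

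The level of miR-5121 was 1194, 621 and 407 CPM in normal glucose, 1601, 541 and 1154 CPM with mannitol, and 921, 566 and 721 CPM in high glucose. All 3 groups overlapped. miR-1843a-5p stood at 313, 214 and 355 CPM in normal glucose, 394, 449 and 407 CPM with mannitol, and 347, 363 and 430.0 CPM in high glucose. Its mannitol libraries all lay above its normal glucose libraries. For miR-1843b-5p the values were 275, 236 and 369 CPM, 289.6, 419 and 319 CPM, and 350.2, 331 and 394 CPM in the same order, with overlap everywhere. The sequences of miR-1843a-5p and miR-1843b-5p shown above differ by an edit distance of 2, and the whole of miR-1843b-5p is also found in Scarna3b. The sources used here do not say how reads shared by the pair were assigned, so their separate levels are uncertain.

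Of the 10 members in snoRNA or scaRNA genes 8 were tested in the comparisons between groups. In high against normal glucose 7 were higher and 1 lower by sign, with a median log2 fold change of 0.34. Over all 260 tested identifiers with a mean of at least 20 CPM, a level that not all of the 8 reach, 119 were higher and 141 lower. In high glucose against mannitol 5 of the 8 were higher and 3 lower (median 0.03), beside 131 and 129 of the 260. In mannitol against normal glucose 5 of the 8 were higher and 3 lower (median 0.24), beside 125 and 135 of the 260. The 8 are not separate observations, since miR-1843a-5p and miR-1843b-5p may share reads and miR-1843b-3p comes from the hairpin of miR-1843b-5p. None of the fold changes of the 8 passed the test described further on.

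Mirtron-like positions were rarer among members than among the high-numbered identifiers at 0. The mature sequence began or ended within 5 bases of an intron's boundary in 14 of 92 matched members (15.2%), in 203 of 827 (24.5%) of those at 0 and in 6 of 301 (1.99%) listed identifiers below 1000. The most abundant of the 14 was miR-1981-5p at chr1:184822465-184822488 on the minus strand, in an 82-base intron of Marc2, a mitochondrial reductase gene. Its level was 482, 626 and 561 CPM in normal glucose, 614, 388 and 826 CPM with mannitol, and 519.9, 347 and 343 CPM in high glucose, all overlapping. Within the mirtron-rich block, miR-6988-3p led at 21.9 to 63.5 CPM. It ends an intron of Syvn1 (chr19:6051371-6051392, plus strand), a gene of the degradation of misfolded proteins in the endoplasmic reticulum.

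Outside snoRNA and scaRNA genes, miR-1198-5p was the most abundant member and ranked second among all members. It lies in an intron of Gripap1 (chrX:7807142-7807163, plus strand), a gene of endosome recycling in neurons. Its level was 1064, 860.0 and 907 CPM in normal glucose, 1918, 623 and 1697 CPM with mannitol, and 1159.7, 501 and 639 CPM in high glucose. Mannitol held its 2 highest values and also its second lowest. Less abundant than miR-2137, described further on, and miR-1981-5p were miR-3057-5p in Apba3 (chr10:81271610-81271633, plus strand), at 195 to 389 CPM, and miR-1964-3p in an intron of Zfp84 (chr7:29773344-29773365, plus strand), at 88.1 to 426 CPM. A single library, normal glucose replicate 2, gave the 426 CPM, and the next highest value of miR-1964-3p was 239 CPM.

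A further set of 3 identifiers matches repeated sequence.
miR-3473b: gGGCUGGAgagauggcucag
miR-3473a: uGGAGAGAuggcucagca
miR-3470b: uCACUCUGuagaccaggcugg
They are shown because the exact letters of miR-3473b occur in transcripts of 114 protein-coding genes, those of miR-3473a in 52 and those of miR-3470b in 173, while 78 of the 92 matched members had no exact match in any such transcript. miR-3473b stood at 105, 47.8 and 100.2 CPM in normal glucose, 247, 117 and 123 CPM with mannitol, and 203, 61.9 and 50.5 CPM in high glucose. miR-3473a, listed in 7 libraries, stood at 8.44, 0 and 0 CPM, 44.4, 12.6 and 9.25 CPM, and 19.3, 13.3 and 7.05 CPM in the same order. For both, each mannitol library lay above each normal glucose library. Counts of these identifiers cannot be assigned to the annotated hairpins.

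Other members lay close to abundant miRNAs with lower numbers. Both pairs are shown because the named member has few counts and its neighbour many.
miR-3965: uGCUUAUCagccugauguu
miR-21a-5p: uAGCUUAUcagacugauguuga
miR-3962: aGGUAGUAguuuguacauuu
let-7g-5p: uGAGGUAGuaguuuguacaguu
The edit distance was 4 between miR-3965 and miR-21a-5p, a growth-associated miRNA at 34139 to 76516 CPM, and 3 between miR-3962 and let-7g-5p, a member of the differentiation-associated let-7 family at 5428 to 10046 CPM. miR-3965 was listed in 6 libraries, at 16.9, 29.4 and 81.3 CPM in normal glucose, 0, 49.1 and 0 CPM with mannitol, and 0, 39.2 and 11.0 CPM in high glucose. miR-3962 was listed in high glucose replicate 3 alone, with 28 counts. Whether reads of the neighbours contribute to these counts was not tested.

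A chosen list of 10 numbers attributed to ribosomal or transfer RNA fragments covered 4 identifiers in the tables, and 2 of these were members. The list need not be complete. The sequences used here held no full ribosomal or cytosolic transfer RNA. Neither this attribution nor a like origin of other members could therefore be fully checked. miR-2137, with a GC content of 85.7% and a locus in an intron of Zfp185 (chrX:72992113-72992133, plus strand), stood at 607, 237 and 415 CPM in normal glucose, 1395, 388 and 552 CPM with mannitol, and 676, 273 and 166 CPM in high glucose. miR-3968 was listed in 3 libraries with 10, 19 and 11 counts. A chosen list of 20 numbers also used in human, a trait of conserved hairpins, covered 39 identifiers in the tables and need not be complete. Of these 8 were members and summed to 34.5 to 163 CPM per library. They were led by miR-3620-5p, in an intron of Apex2, at 14.9 to 75.8 CPM, and by miR-1306-3p, whose hairpin lies in an exon of Dgcr8. A chosen list for the imprinted Dlk1-Dio3 locus covered 11 identifiers, and none was listed. That list is not complete, since it leaves out miR-1247-3p in an exon of Dio3os (chr12:110278058-110278078, minus strand). This member was listed in 3 libraries, with 12, 11 and 11 counts. Of 6 identifiers from introns of the serotonin receptor gene Htr2c only miR-1298-5p was listed, at 0 to 16.5 CPM.

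Where more than 1 form of a hairpin was listed, the abundant hairpins were strongly one-sided. For miR-1839 the 5p arm had 77504 counts over the 9 libraries and the 3p arm 61. The leading arm held 99.9% of the hairpin's summed mean CPM, and the shares in parentheses below are of mean CPM too, not of counts. miR-1981 had 7047 and 68 counts (99.1%), miR-1843a 5083 and 13 (99.7%) and miR-1843b 4547 and 69 (98.5%). Among rarer hairpins, miR-1306 had 314 counts of the 3p and 208 of the 5p arm (60.7%), and the 3 forms of miR-3102 had 291, 216 and 72 (50.3% in the leading form). In all, 8 hairpins had more than 1 form listed.

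The number of members listed overlapped between all groups. Normal glucose libraries listed 67, 49 and 49, mannitol libraries 73, 55 and 88, and high glucose libraries 43, 42 and 80. The 2 deepest libraries, high glucose replicate 3 and mannitol replicate 3, listed 80 and 88. Of the 28 identifiers listed in 1 library alone before identical rows were merged, 17 were in mannitol replicate 3. The 4 sets of identical rows, 14 identifiers in all, were each listed in a single library with 10 to 12 counts, and all 14 had distinct mature sequences. With a minimum of 20 CPM the numbers were 33, 29 and 27 in normal glucose, 39, 26 and 33 for mannitol, and 34, 23 and 22 for high glucose.

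**Figure D2:**
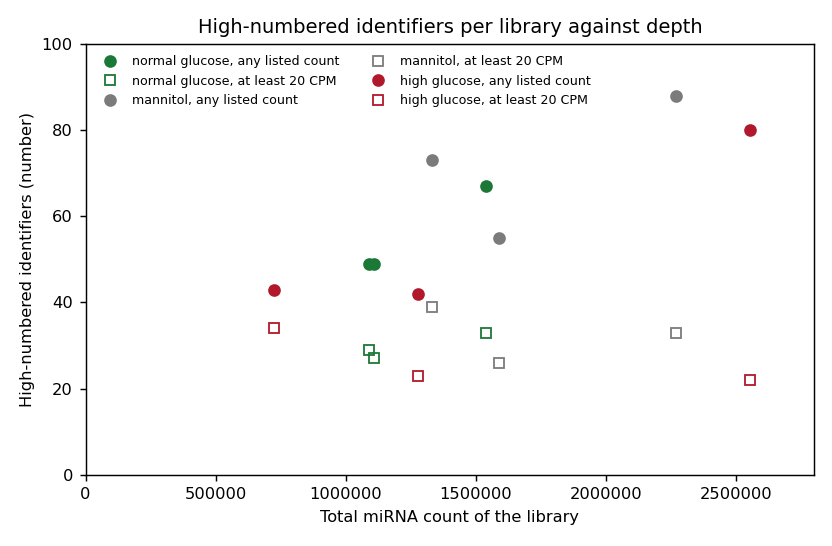
Number of high-numbered identifiers per library against the total miRNA count of the library, for any listed count (filled circles) and for at least 20 CPM (open squares). Any-count numbers ranged from 42 to 88 and were highest in the 2 deepest libraries, while numbers at 20 CPM ranged from 22 to 39 and were lowest in the deepest.

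The study asked which vesicle miRNAs differ in high glucose, with mannitol as the osmotic control. Tests used edgeR's quasi-likelihood method over all identifiers, with Benjamini-Hochberg adjustment and a threshold of 0.05. The filter on low counts left 361 identifiers, 63 of them members, and the other 45 members were too rare to be tested. No member passed in any of the 3 comparisons, and the same held for all identifiers (0 of 361, 0.0% in each). The smallest adjusted p among members was 0.995 in high against normal glucose, 0.704 in high glucose against mannitol and 1.0 in mannitol against normal glucose. The 3 comparisons share their groups in pairs and are not independent. Named below, as values that did not pass, are the tested members with the smallest unadjusted p in each direction, and those whose libraries did not overlap.

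In high against normal glucose, 3 of 63 members (miR-3535, miR-1964-3p and miR-7224-3p) had an unadjusted p under 0.05, beside 2.77% of all identifiers tested. The count was 0 without high glucose replicate 2, 6 without high glucose replicate 3, and 1 without normal glucose replicate 2 or without mannitol replicate 3. miR-3535, the member inside the nucleolin intron, stood at 122, 119.6 and 112 CPM in normal glucose, 99.3, 125 and 65.2 CPM with mannitol, and 196, 198 and 165 CPM in high glucose. All high glucose libraries lay above all others, and the means were 118 ± 5.27, 96.4 ± 29.8 and 186 ± 18.6 CPM (SD, n = 3 each). Its log2 fold change was 0.75 (SE 0.33), and miR-1843a-5p had 0.49 (SE 0.29). miR-3473a, at 0 in 2 normal glucose libraries, had 2.22 (SE 1.47), which was 0.58 with each listed 0 set to 9 reads. Toward lower values, miR-1964-3p had -0.96 (SE 0.44), which was -0.26 without normal glucose replicate 2. In an intron of the actin-related gene Actr5 (chr2:158638583-158638604, plus strand), miR-3474 stood at 13.6, 24.8 and 16.3 CPM in normal glucose, 19.6, 9.44 and 33.9 CPM with mannitol, and 0, 0 and 6.27 CPM in high glucose, a log2 fold change of -2.81 (SE 1.35). That value was -1.14 with each listed 0 set to 9 reads.

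Groups listed at 0 give no fold. miR-7224-3p stood at 19.5, 9.20 and 0 CPM in normal glucose and at 0 in all high glucose libraries. miR-1981-3p, the rare arm of the Marc2 hairpin, stood at 10.4, 13.8 and 0 CPM and likewise at 0 in high glucose. miR-3970 was at 0 in normal glucose and at 0, 11.0 and 11.0 CPM in high glucose. Where listed in these groups, the 3 had 10 to 30 counts per library.

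The high and normal glucose libraries did not overlap for 5 of 63 members, beside 9.42% of all identifiers tested. The 2 that lay higher in high glucose, beside 2.49% of all, were miR-1839-5p, with a log2 fold change of 0.34 (SE 0.29), and miR-3535. The 3 that lay lower, beside 6.93% of all, were miR-1306-3p, miR-3474 and miR-7682-3p. miR-1306-3p stood at 29.2, 22.1 and 25.3 CPM in normal glucose, 38.4, 19.5 and 37.0 CPM with mannitol, and 16.5, 0 and 15.3 CPM in high glucose. Its high glucose values lay below those of both other groups. This 3p arm of the Dgcr8 hairpin (chr16:18284248-18284268, minus strand) and miR-3474 are shown as the members that lay below both other groups as listed.
miR-1306-3p: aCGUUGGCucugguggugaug
miR-3474: cCCUGGGAggagacguggauuc
Taking each listed 0 as anything from 0 to 9 reads, a choice made after the values were seen, 4 of 63 remained separate, without miR-7682-3p, beside 8.31% of all identifiers.

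High glucose against mannitol compares media of like osmolality. Here too 3 of 63 members (miR-3535, miR-7666-3p and miR-3474) had an unadjusted p under 0.05, beside 5.26% of all identifiers tested, and with the replicate number as a block the count was 7. It was 11 without mannitol replicate 2 and also without high glucose replicate 1, 7 without high glucose replicate 3, 15 with the scaling to the deposited constant and 18 with each listed 0 set to 9 reads. miR-3535 had a log2 fold change of 1.09 (SE 0.34), miR-1839-5p 0.39 (SE 0.29), miR-3081-3p 0.40 (SE 0.32) and miR-1843b-5p 0.20 (SE 0.30). The value of miR-1839-5p was 0.22 without mannitol replicate 1 and 0.77 without mannitol replicate 2, and that of miR-1843b-5p 0.02 and 0.49. miR-3535 had 0.59, and the other 3 turned below 0, when counts were scaled to the constant of the deposited normalized values, which moved the median of the 260 identifiers with a mean of at least 20 CPM to -0.51. Toward lower values, miR-7666-3p stood at 136, 78.7 and 129 CPM with mannitol and 81.4, 39.9 and 36.0 CPM in high glucose, a log2 fold change of -1.01 (SE 0.35). miR-3474 had -2.91 (SE 1.35), or -1.46 with each listed 0 set to 9 reads, and miR-1198-5p -0.73 (SE 0.36), and miR-7224-3p was at 17.3, 0 and 8.37 CPM with mannitol.

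Libraries of high glucose and mannitol did not overlap for 6 of 63 members, beside 10.2% of all identifiers tested. The 1 that lay higher was miR-3535, beside 2.49% of all, and the 5 that lay lower in high glucose, beside 7.76% of all, were miR-1306-3p, miR-3474, miR-7009-5p, miR-3470b and miR-1957a. Only 3 of the 6, miR-3535, miR-1306-3p and miR-1957a, stayed separate with each listed 0 taken as 0 to 9 reads, beside 8.03% of all identifiers. miR-1957a stood at 13.5, 25.2 and 17.2 CPM with mannitol and at 0, 13.3 and 0 CPM in high glucose.

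In mannitol against normal glucose, 0 of 63 members had an unadjusted p under 0.05 in edgeR, beside 1.39% of all identifiers tested, and DESeq2 and limma-voom gave 2 each. In edgeR the count was 8 without mannitol replicate 2, 5 without normal glucose replicate 1, 1 without high glucose replicate 1, and 6 with each listed 0 set to 9 reads. Among higher values, miR-3473b had a log2 fold change of 0.88 (SE 0.45), miR-3473a 2.77 (SE 1.49), miR-2137 0.79 (SE 0.48) and miR-1843a-5p 0.48 (SE 0.29). The value of miR-2137 was 0.20 without mannitol replicate 1 and that of miR-3473b 0.57, and the value of miR-3473a was 1.37 with each listed 0 set to 9 reads. Among lower values, miR-1964-3p had -0.62 (SE 0.43), miR-3081-3p -0.41 (SE 0.32), miR-3535 -0.35 (SE 0.33) and miR-6988-3p -0.26 (SE 0.41), and all 4 turned above 0 with the scaling to the deposited constant, which moved the median of the 260 identifiers to 0.48. Libraries did not overlap for 4 of 63 members, beside 3.32% of all identifiers tested, and the same 4 stayed separate with each listed 0 taken as 0 to 9 reads. All 4 lay higher with mannitol, beside 2.22% of all identifiers higher and 1.11% lower. They were miR-1843a-5p, miR-3473b, miR-3473a and miR-1957a, the last listed in normal glucose only in replicate 1, with 10 counts.

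Directions over the abundant members were counted without a test. Among the 30 tested members with a mean of at least 20 CPM, 10 were higher and 20 lower in high glucose against mannitol, with a median log2 fold change of -0.41. Over all 260 tested identifiers at that level, 131 were higher and 129 lower, with a median of 0.01. In mannitol against normal glucose 20 of the 30 were higher and 10 lower (median 0.28), beside 125 and 135 of all 260 (median -0.01). In high against normal glucose the members gave 12 higher and 18 lower (median -0.06), beside 119 and 141 (median -0.04). Leaving out mannitol replicate 1 took the first median to -0.23 and the second to 0.16, and leaving out mannitol replicate 3 took them to -0.24 and 0.12. Larger medians came without mannitol replicate 2, at -0.63 and 0.56, and the first was -0.75 without high glucose replicate 1 and -0.27 without high glucose replicate 3. The third lay between -0.40, without high glucose replicate 1, and 0.11, without normal glucose replicate 1. With the scaling to the deposited constant all identifiers shifted too: the 30 members were split into 1 higher and 29 lower, 29 and 1, and 7 and 23, beside 40 and 220, 239 and 21, and 101 and 159 of all 260.

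GC content moved with these fold changes. Across the 28 of the 30 members with a sequence, the Spearman correlation between GC content and the log2 fold change of high glucose against mannitol was -0.60, and across 230 of the 260 identifiers it was -0.65. The low-GC miR-3535 (38.5%) was at the upper end and miR-2137 (85.7%) at -0.91. The same correlation was 0.47 for members and 0.35 for all identifiers in mannitol against normal glucose, and -0.33 and -0.43 in high against normal glucose. These are descriptions across identifiers that share the same 9 libraries, and the part of GC content in the fold changes was not tested.

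**Figure D3:**
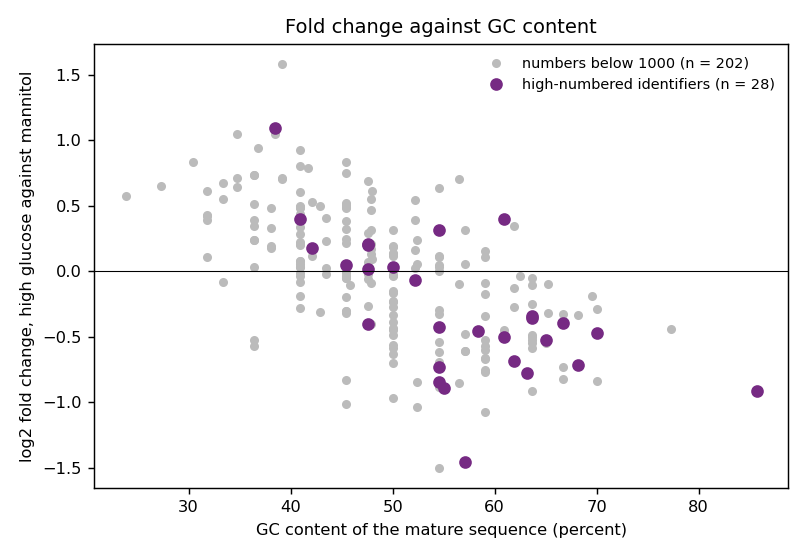
Log2 fold change of high glucose against mannitol plotted against the GC content (percent) of the mature sequence, for 28 high-numbered identifiers (purple) and 202 with numbers below 1000 (grey), all with a mean of at least 20 CPM. Both sets slope downward, with a Spearman correlation of -0.60 for the high-numbered identifiers and -0.65 for all 230 points.

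A pattern within the groups went with the sample titles. Replicate 1 of each group is the library without a number in its title, and the others bear the numbers 2 and 3. After the values were seen it was counted how often that library was the highest of its group in all 3 groups: this held for 17 of 63 tested members (27.0%), beside 14.1% of all 361 identifiers. It was the lowest in all 3 groups for 0 of 63, beside 7.2% of all. Among members with a mean of at least 20 CPM the highest position was held by 11 of 30 (36.7%), beside 15.4% of the 260 identifiers at that level, and the lowest by 0, beside 8.08%.

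The members with this order included miR-1198-5p, miR-5121, miR-2137, miR-3473b, miR-6239 and miR-5114. miR-6239, outside any host gene of its strand (chr14:117953768-117953787, minus strand), stood at 149, 36.8 and 82.2 CPM in normal glucose, 328, 79.3 and 106 CPM with mannitol, and 178, 43.1 and 34.9 CPM in high glucose. The replicate 1 library exceeded the next by 1.81, 3.09 and 4.13 times. In an exon of Scd2, a fatty acid desaturase gene, miR-5114 (chr19:44303171-44303192, plus strand) stood at 115, 36.8 and 52.4 CPM, 204, 54.1 and 87.2 CPM, and 93.8, 31.3 and 47.8 CPM in the same order, with ratios of 2.20, 2.34 and 1.96.
miR-5114: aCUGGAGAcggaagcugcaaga
miR-1839-5p showed no such order, with ratios of 0.994, 0.650 and 0.877. Between the replicate 1 libraries and the mean of the others, the log2 ratio had a Spearman correlation with GC content of 0.65 across the 28 members and 0.63 across the 230 identifiers. The labels do not say what the title numbers stand for, and the part of any batch in this order was not tested.

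**Figure D4:**
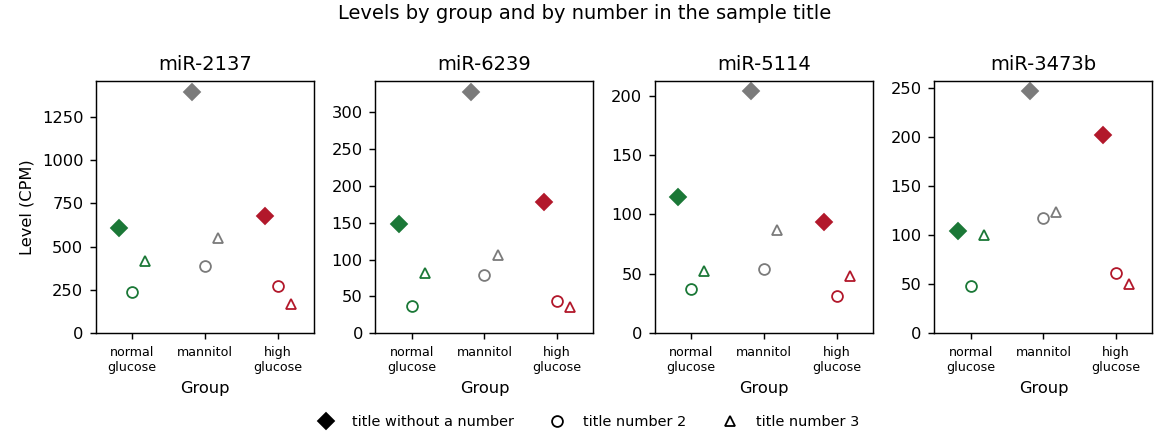
Level in CPM of 4 high-numbered identifiers by group, with filled diamonds for the library whose title has no number, open circles for title number 2 and open triangles for title number 3. The 4 were picked from the 17 of 63 tested members with this order, so the filled diamond is the highest in every group by choice. Its level ranged from 1.04 times the next library for miR-3473b in normal glucose to 4.13 times for miR-6239 in high glucose.

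The remaining members were rare. miR-6538, with the highest GC content of all matched members (94.7%), was listed in 3 libraries, at 35.9 CPM in normal glucose replicate 2, 242 CPM in mannitol replicate 1 and 6.61 CPM in mannitol replicate 3. The 242 CPM placed its mean above that of members listed in all 9 libraries, such as miR-3099-3p at 14.9 to 46.1 CPM. Of members listed in 1 library, those with the highest counts were miR-3962, described above, and miR-5132-5p and miR-7655-3p, with 20 and 19 counts in mannitol replicate 3. For all other high-numbered identifiers, 948 in number, the tables listed 0 in every library.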

How the data were processed

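Small RNA libraries from vesicles of 9 samples were analysed, 3 per treatment. Per the file headers, each deposited table holds a total count per miRNA, used as deposited, and a normalized value, an RPM equal to the count divided by 1 constant per library, used only as an alternative scaling. The submitters' processing notes name bcl2fastq, BWA and mm10, with no versions or settings. CPM is the count over all miRNA counts of the library, with means ± SD over 3 libraries. Groups were compared with edgeR 4.0.16 under R 4.3.3 (TMM, expression filter by group, robust quasi-likelihood test, all 9 libraries in a joint fit, Benjamini-Hochberg adjustment over all 361 tested identifiers). DESeq2 1.42.0, limma 3.58.1, other scalings and filters, and each library left out were alternatives. Sequences and loci came from RefSeq and GENCODE M21 tables of GRCm38, and the fit was tested on simulated data.

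The members and lists were chosen with earlier results of these data known. Named members were the 12 most abundant, per comparison the 4 with the smallest unadjusted p in each direction, the leaders of each number range and list, the 3 most counted in 1 library only, and the 3 most abundant hairpins with both arms listed. miR-5114, miR-6538, miR-3965, miR-3470b, miR-1928, miR-3099-3p, miR-1247-3p and the members whose libraries did not overlap were named after their values were seen. Samples with the same title number deviated together between high and normal glucose (correlations 0.197, 0.316 and 0.244) and between high glucose and mannitol (0.454, 0.521 and 0.169); the labels do not give a reason. Each library counted as 1 replicate. No pair within a group agreed within counting noise (chi-square per degree of freedom 88.1 to 765). That spread does not show that the libraries came from separate cultures, because repeat libraries of 1 culture can also differ by more than counting noise.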

Additional observations from a re-analysis of the deposited data

How the results depend on the processing

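A listed 0 can hide up to 9 reads, which limits all members near 10 CPM, and 3 libraries per group limit every comparison. Of 356 alternative values for 20 named fold changes, 346 kept their direction. These fold changes were picked for their small unadjusted p in the same 9 libraries, so the kept directions are no separate support. None of the 356 values passed an adjusted p of 0.05. The count of members past that threshold stayed at 0 in all alternatives except the fit without an expression filter, which called 1 (miR-6538) in high against normal glucose and 1 (miR-6538) in high glucose against mannitol, an identifier listed in 3 libraries. Scaling to the deposited constant turned the sign in high glucose against mannitol for miR-1839-5p (-0.11), miR-3081-3p (-0.12) and miR-1843b-5p (-0.30). In mannitol against normal glucose it did so for miR-1964-3p (0.0485), miR-3081-3p (0.0212), miR-3535 (0.0847) and miR-6988-3p (0.37). Leaving out 1 library at a time, the mannitol against normal glucose value ranged from -0.86 to 0.15 for miR-1964-3p and from -0.43 to 0.20 for miR-6988-3p, above 0 without normal glucose replicate 2 for both and, for miR-6988-3p, also without mannitol replicate 2 (0.03). With the replicate block 0 members passed in each comparison, and it changed no other call; unadjusted p fell under 0.05 for 3, 7 and 5 members, against 3, 3 and 0 without it. In mannitol against normal glucose the title numbers did not pair the samples (correlations 0.229, 0.0834 and -0.0583). DESeq2 gave 5, 5 and 2 members at an unadjusted p under 0.05 and limma-voom 1, 5 and 2. Without miR-1839-5p the share of counts in members was 0.522% for normal glucose, 0.714% for mannitol and 0.471% for high glucose. The cause of these shifts was not tested.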
